A study of Mus musculus and other sequences with 2 samples.

Results

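The miR-10, miR-196 and miR-615 sequences are microRNAs encoded within the Hox clusters, and they were examined here in media that had held murine blastocysts and in media that had not. Members were chosen by name alone, as the mouse assays of miR-10a, miR-10b, miR-196a, miR-196b and miR-615, with or without an arm and excluding minor arms, which the array marks with #. This rule found 7 assays, under 6 names, of the 750 miRNA assays in the dataset. Of the 7, only mmu-miR-196a reached a Ct below 35 with embryos present, and it did so in blank media as well. Among all 750 assays, 37.3% were below 35 with embryos present, and 23.5% were below 35 in both media. With so few members, these shares were not compared by a test. No member was detected in conditioned media alone, where 13.9% of all miRNA assays were, and mmu-miR-615-5p was detected in blank media alone, where 5.6% were. Another 4 members had no Ct in either medium, as was the case for 52.3% of all assays.

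The conditioned sample was a single microdroplet of 8 μL in which 25 embryos were held between 99 and 116 h post-hCG. These embryos came from superovulated CD1 females mated with CD1 males. The labels call them blastocysts, and the study's methods describe them as morulae at the start. The blank sample was a single microdroplet without embryos, cultured for the same 17 h. Both used KSOM free of BSA, to which the labels add polyvinylacetate while the paper names PVA, defined there as polyvinyl alcohol, and 6 μL of each was lysed whole, without RNA extraction. Because 25 embryos shared 1 droplet and each medium was sampled once, no spread between embryos, cultures or media could be measured, and no test between the media was possible.

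Hox genes encode transcription factors that set positional identity along the head-to-tail axis, and they are arranged in clusters whose order on the chromosome follows the order of their expression in the body. They are best known for their activity from gastrulation onwards, after the stage sampled here. Several miRNA genes lie between or within Hox genes, and their mature products act largely as repressors of mRNA, Hox transcripts among them. A well-studied case is miR-196, which pairs almost completely with Hoxb8 mRNA and directs its cleavage.

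In the RefSeq annotation of the mouse assembly GRCm38.p6, Mir10a lay on chromosome 11 inside the span of Hoxb3, between Hoxb5 and Hoxb4. Mir10b lay on chromosome 2 inside the spans of Hoxd3 and Hoxd4. The mature miR-196a has 2 genes, Mir196a-1 between Hoxb13 and Hoxb9 on chromosome 11 and Mir196a-2 between Hoxc10 and Hoxc9 on chromosome 15. Mir196b lay between Hoxa9 and Hoxa10 on chromosome 6, and Mir615 inside Hoxc5 on chromosome 15. Each of the 4 Hox clusters was thus represented by at least 1 member.

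The mature sequences are shown because miR-10a and miR-10b, and likewise miR-196a and miR-196b, are near-identical, so that a signal of these may not belong to 1 sequence alone. The arms of miR-615 form no such pair. The 6 sequences shown were taken from RefSeq and are written 5′ to 3′ with the seed, bases 2 to 8, in capitals. Because the name mmu-miR-615 gives no arm, both arms of miR-615 are shown. The seed is the stretch that a miRNA mainly uses to find its targets.
miR-10a-5p: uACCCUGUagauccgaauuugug
miR-10b-5p: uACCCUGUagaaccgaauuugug
miR-196a-5p: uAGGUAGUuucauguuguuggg
miR-196b-5p: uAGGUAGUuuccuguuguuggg
miR-615-5p: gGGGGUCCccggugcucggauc
miR-615-3p: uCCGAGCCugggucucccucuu

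On GRCm38.p6, miR-10a-5p lies at chr11:96317186-96317208 on the plus strand and miR-10b-5p at chr2:74726074-74726096 on the plus strand. The copies of miR-196a-5p lie at chr11:96265187-96265208 and chr15:102973365-102973386, both on the plus strand, and miR-196b-5p at chr6:52230129-52230150 on the minus strand. Both arms of miR-615 come from the plus strand, the 5p arm at chr15:103014926-103014947 and the 3p arm at chr15:103014969-103014990.

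Counted from 1 at the 5′ end, miR-10a-5p and miR-10b-5p differed over their 23 bases by U12A alone, and miR-196a-5p and miR-196b-5p over their 22 bases by A12C alone. Both changes fell outside the seed. Among 1679 mature mouse names in the table, the seed ACCCUGU was held at bases 2 to 8 by the 2 miR-10 sequences and no other, and AGGUAGU by the 2 miR-196 sequences and no other. The letters AGGUAGU occurred anywhere in 13 of the names, or 0.774%, and 8 of these were let-7 or miR-98 sequences, which in let-7a-5p held them at bases 3 to 9. Neither arm of miR-615 shared its seed with any other name. The name mmu-miR-615 carries no arm, and the sequence that each assay was designed against was not used here, so the arm measured by that assay is not stated.

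Each assay was read in 1 well per medium. Its value is the Ct, the cycle at which fluorescence crossed a threshold, on a scale where a lower value stands for more template and 1 cycle for about a doubling. A well was called detected below a Ct of 35, and an undetermined well was counted as above it. The study also required a minimum height of the fluorescence signal, a filter not applied here. The paper also started from a smaller number of screened miRNAs than the 750 assays counted here. Those 750 include minor-arm and rat-named assays, which the member rule leaves out. The paper counted fewer sequences as detected in each medium, and the shares given here are not its detection rates. With 40 cycles run, an undetermined well was taken as later than cycle 40, so that a difference from such a well is a bound.

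The error between wells was gauged with the small nuclear RNA U6, a control read in 4 wells of each card. On card B, U6 averaged a Ct of 19.96 ± 0.83 (SD, 4 wells) with embryos and 27.04 ± 0.23 without them. On card A the values were 20.9 ± 0.68 and 24.98 ± 3.22, the last including 1 well at 20.2 beside 3 between 26.3 and 27.1. The mean of U6 was therefore earlier in conditioned media on each card, by 4.08 cycles for card A and 7.07 cycles for card B. These spreads describe wells, not cultures.

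The miR-10 sequences, whose genes sit by Hoxb4 and Hoxd4, had 3 assays. The assay of mmu-miR-10a, on card A, was undetermined in either medium. The first assay of mmu-miR-10b, also on card A, was likewise undetermined in both. The second assay of mmu-miR-10b, on card B, crossed the threshold at a Ct of 35.6 in the conditioned well, while the blank well was undetermined. That value was 0.63 cycles past the limit of 35, and at least 4.37 cycles earlier than in blank media. The 2 assays of this name therefore differed in conditioned media, 1 having a late Ct and the other none.

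Late values of this kind were found for a small share of the array. With embryos, 27 of the 750 assays, or 3.6%, gave a Ct of 35 or later, from 35.5 to 39.99, and 18, or 2.4%, did so without a Ct in blank media. Without embryos, 26 did so, from 35.2 to 39.3. Among names with 2 assays, of which there were 26, 10 had 1 assay below 35 and the other not in conditioned media, and 7 had no Ct in any of their 4 wells. For miR-10b neither assay fell below 35 in either medium.

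The minor arms of this family, mmu-miR-10a# and mmu-miR-10b#, both on card B, were undetermined in both media. The relatives of miR-10 outside the Hox clusters, miR-99a, miR-99b and miR-100, were all on card A. Of these, mmu-miR-99a gave a Ct of 32.8 with embryos and none without, a difference of at least 7.19 cycles, and the other 2 were undetermined in both. The sequence of miR-99a-5p is shown to set its seed beside that of miR-10.
miR-99a-5p: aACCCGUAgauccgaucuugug

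The seed of miR-99a-5p, ACCCGUA, was shared with miR-99b-5p and miR-100-5p and not with miR-10.

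The miR-196 sequences, known for repression of Hox mRNAs, had 2 member assays, which behaved differently. The assay of mmu-miR-196b, on card A, was undetermined in both media. The assay of mmu-miR-196a, on card B, gave a Ct of 17.0 in the conditioned well and 16.3 in the blank well. It was thus 0.72 cycles later with embryos than without. This difference was smaller than the SD of U6 wells on card B in conditioned media and larger than that in blank media. The U6 wells of a card were loaded from the same reaction mix in each medium. Their SD therefore leaves out the error of reverse transcription and pre-amplification, which the difference between media includes. It was also smaller than every gap between 2 assays of the same name in the same medium. Over the 8 such pairs with both Ct values below 35, the median gap was 3.735 cycles, from 1.25 to 14.7. Those pairs compare different assays, not repeat wells, and no test of the difference was possible.

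Other assays also gave early and nearly equal Ct values in both media. On card B, 82 assays were detected in both media; the median of their differences, taken as conditioned minus blank, was 0.25 cycles, with quartiles of -1.78 and 1.93, and 22 of the 82 differed by as little as mmu-miR-196a or less. By Ct it ranked 42 among 141 card B assays that had one with embryos and 31 among 106 that had one without, rank 1 being the earliest, and 22 assays of the card, itself included, were at least as early in both media. Its Ct preceded the earliest U6 well of the card by 1.95 cycles in conditioned media and by 10.5 in blank media. Ct values of different assays also depend on the efficiency of each, so this order is not an order of amounts. Relative to U6, the difference became 7.80 cycles later in conditioned media, past the limit of 5, whereas without a reference it was within it.

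The minor arm of miR-196a gave the earliest Ct of the related assays. The assay of mmu-miR-196a#, on card B, gave a Ct of 9.399 in the conditioned well and 7.97 in the blank well. It ranked 13 in conditioned media and 6 in blank media among the card's assays, and was 1.43 cycles later with embryos. Its Ct preceded the earliest U6 well of the card by 9.59 cycles in conditioned media and by 18.9 in blank media. Whether values this early reflect template was not tested. Both arms of miR-196a hence had a Ct in both media, each slightly earlier in the blank.

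A different pattern was seen in the rat-named assay of the family, rno-miR-196c, on card A. The conditioned well gave a Ct of 29.8 and the blank well was undetermined, a difference of at least 10.2 cycles. Among the 104 miRNA assays detected in conditioned media only, it ranked 65 by Ct, with the median of that set at 28.4. Of the 11 assays of these miRNA numbers, minor arms included, it was the only one that was detected in conditioned media alone. The paper's list of sequences exclusive to conditioned media, filtered on signal height as well, holds miR-196c at the same Ct. Its target sequence was not among those used here, and cross-amplification among miR-196 sequences was not tested.

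**Figure D1:**
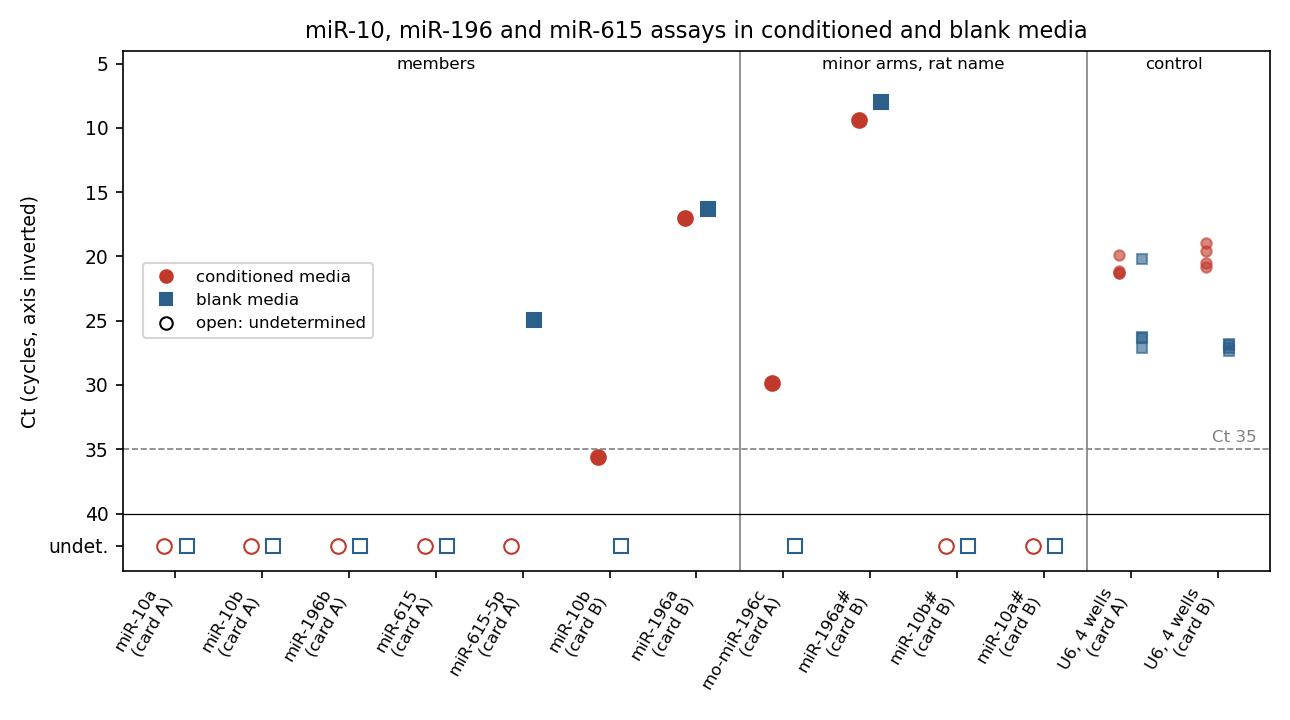
Ct in cycles (vertical axis, inverted so that an earlier Ct is higher) for the 7 member assays, the 4 minor-arm or rat-named assays of the same numbers, and the 4 U6 wells of each card. Height between different assays is not an order of amounts. Each symbol is 1 well, circles for conditioned and squares for blank media, and open symbols below the line at 40 are undetermined wells. The 2 miR-196a assays have early, nearly equal values in both media, rno-miR-196c is present in conditioned media and miR-615-5p in blank media only, and miR-10b on card B falls just past the dashed limit of 35.

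The miR-615 sequences, whose gene lies within Hoxc5, had 2 assays on card A. The assay of mmu-miR-615 was undetermined in both media. The assay of mmu-miR-615-5p gave a Ct of 24.96 in the blank well and none in the conditioned well, so that it was at least 15.04 cycles later with embryos than without. In blank media it ranked 65 among 138 card A assays with a Ct, later than the stray U6 well of that card at 20.2 and earlier than the other 3. Among the 42 assays detected in blank media only, it ranked 21, with the median of that set at 25.0 and 28 of the 42 on card A. The paper, which also filtered on signal height, counted 2 sequences exclusive to blank media, so this set of 42 is wider than the paper's. Only 1 well stood behind each Ct of mmu-miR-615-5p. The direction, with signal in the droplet that held no embryos, was the opposite of that of rno-miR-196c.

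By count, 1 of 7 members was detected in conditioned media, where 37.3% of all miRNA assays were, and 2 of 7 in blank media, where 29.1% were. No member was detected in conditioned media only, a class that held 13.9% of all assays, and 1 of 7 was detected in blank media only, compared with 5.6%. One member, mmu-miR-196a, was detected in both, as were 23.5% of assays. The difference limit of 5 cycles was applied only where both wells were below 35. Among the members only mmu-miR-196a met that condition, and its difference was within the limit. The other members, mmu-miR-615-5p included, could not be counted by this rule in either direction. Of the 750 assays, 176 met the condition. With embryos, 19 of these passed the limit toward an earlier Ct, or 2.53% of the 750, and 20 toward a later Ct, or 2.67%. Wells undetermined in both media were found for 4 of 7 members, namely mmu-miR-10a, the card A assay of mmu-miR-10b, mmu-miR-196b and mmu-miR-615, against 52.3% of all assays. With 7 assays, a single assay moves a share by 14.3 percentage points.

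The cards differed in what they held. All 4 members without a Ct were among the 5 on card A, where 46.8% of the 374 assays had none and 39.8% were detected in conditioned media. Both members on card B had a Ct in at least 1 medium, where 57.7% of the 376 assays had none and 34.8% were detected in conditioned media.

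**Figure D2:**
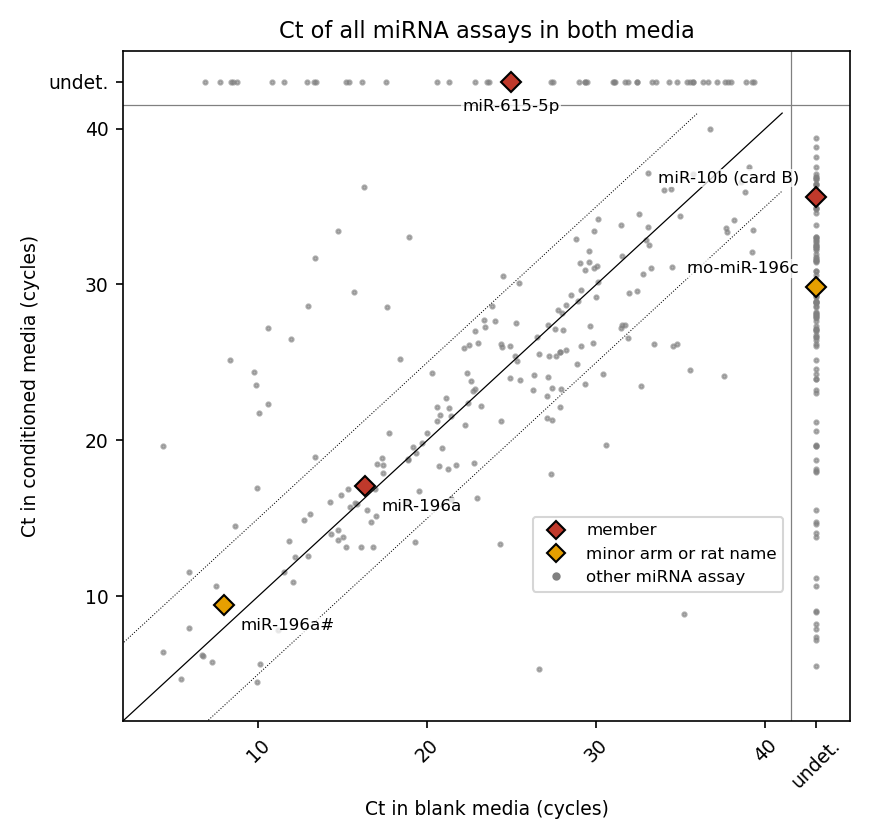
Ct in conditioned media against Ct in blank media, in cycles, for every miRNA assay with a Ct in at least 1 medium. Grey points are single assays, diamonds the member and related assays, the solid line marks equal Ct, the dotted lines a difference of 5 cycles, and the outer strips hold wells undetermined in 1 medium. The miR-196a and miR-196a# assays lie close to the line of equal Ct, and miR-10b, rno-miR-196c and miR-615-5p lie in the strips.

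For the 3 member assays with a Ct in at least 1 medium, the assays of the same card most like each were found by the distance between their 2 Ct values, an undetermined well being set to 40. The 4 members without a Ct were left out of this. For mmu-miR-196a they were mmu-miR-712, mmu-miR-190b and mmu-miR-715, at 0.62 to 1.49 cycles. For the card B assay of mmu-miR-10b they were mmu-miR-878-3p, mmu-miR-466a-3p and mmu-miR-30a-3p, at 0.11 to 0.73 cycles and all undetermined in blank media. For mmu-miR-615-5p they were mmu-miR-539, mmu-miR-497 and mmu-miR-509-3p, at 1.302 to 2.12 cycles and all undetermined in conditioned media. The likeness rests on 2 samples.

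For comparison, assays of the miR-290 to miR-295 sequences, abundant in the early embryo, were detected in conditioned media for 10 of 14 and in blank media for 0 of 14, with a Ct from 19.6 to 34.6. The other 4 of the 14 had no Ct in either medium. At the limit of 35, none of the 7 members was detected with embryos alone, as 13.9% of all assays were. The card B assay of mmu-miR-10b missed that limit by 0.63 cycles, crossing at 35.6 with embryos and staying undetermined without them. At a limit of 38 it was counted as detected with embryos alone. In lists of other tissue-restricted miRNAs, 3 of 7 muscle assays were detected in conditioned media and 2 of 7 in blank media. Of 6 neural assays, 1 was detected only in conditioned media, at a Ct of 8.97, and a different 1 only in blank media, at 31.1. Sperm-associated assays were detected for 2 of 6 in conditioned media and 1 of 6 in blank media. Blood-associated assays were detected for 5 of 8 in conditioned media, from 27.4 to 31.4, and for 6 of 8 in blank media, from 23.3 to 32.4, while the red cell miRNAs miR-451 and miR-144 were undetermined in both. The part of any such source in the member values was not tested.

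**Figure D3:**
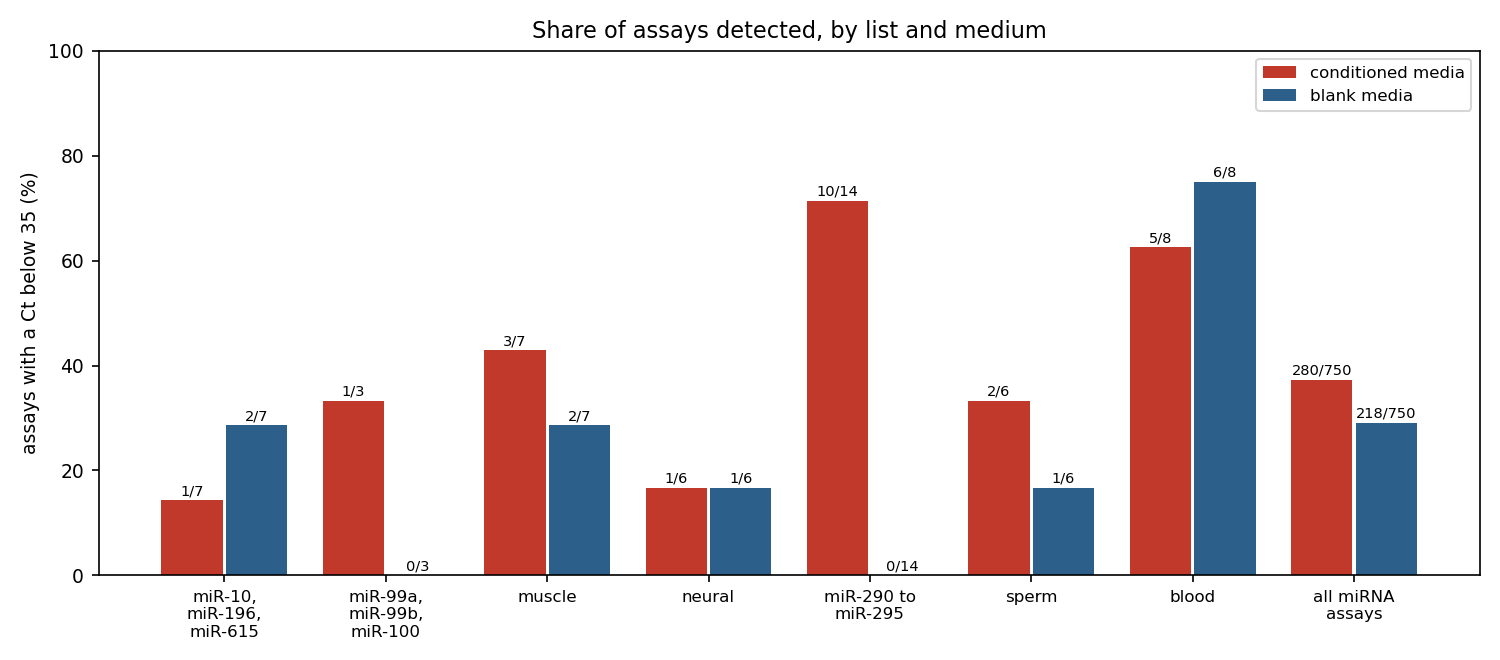
Share of assays with a Ct below 35 (vertical axis, percent) in conditioned and blank media for each list, with the number detected over the number of assays above each bar. There is 1 sample per medium and no error bar. The member list stands at 1 of 7 and 2 of 7, beside 280 and 218 of the 750 assays in all, and the miR-290 to miR-295 list at 10 of 14 and 0 of 14.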

How the data were processed

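The authors lysed 6 μL of each droplet, reverse transcribed it with pooled primers, pre-amplified it for 12 cycles without dilution and ran it for 40 cycles on a TaqMan rodent array of 2 cards, A and B. The authors deposited unnormalized Ct values, 1 per well, on an inverted log2 scale, with wells lacking a Ct given as undetermined. How the threshold and baseline were set is not given in the sources used here, and signal height, by which the study also filtered, was not analysed here. Pre-amplification moves every Ct earlier, and its error could not be measured with 1 sample per medium. A second deposited table of fold changes between the media holds the authors' own comparison and was not used.

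Of 768 wells per sample, 18 controls were left out of counts. The Ct limit of 35 follows the study, as does the size of the difference limit, 5 cycles. The study's filter on signal height was not applied, so detection here is by Ct alone. The paper prints a difference below 5 for sequences higher in conditioned media; here a difference below -5 was required for an earlier Ct, with both wells below 35. Differences were taken as conditioned minus blank, without a reference in the main analysis. No test was run, there being 1 sample per medium. Every member was described, with the other assays of its number, the miR-99 and miR-100 relatives, and, for members with a Ct in either medium, the 3 nearest assays by Ct; other lists were given by counts. The lists comprised 14 miR-290 to miR-295, 7 muscle, 6 neural, 6 sperm and 8 blood assays. The members and lists were chosen with earlier results of these data known. Alternatives were Ct limits of 32 and 38, any determined Ct, unique names, U6 or the card median as reference, and the members without mmu-miR-196a, the last added after seeing the data. Counting was tested on simulated data for 750 assays, where 8 of 8 checks passed. Sequences and neighbouring genes were from RefSeq (GRCm38.p6), while the deposited values name no genome build. Python 3.11.15, pandas 2.3.3, numpy 2.4.6 and matplotlib 3.10.9 were used.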

Additional observations from a re-analysis of the deposited data

How the results depend on the processing

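With a Ct limit of 38 or any determined Ct, 2 members in place of 1 were detected in conditioned media and 1 in place of 0 in conditioned media only, in each case through the card B assay of mmu-miR-10b. Over all miRNA assays these shares were 40.4% and 15.6% at 38, and 40.9% and 15.2% for any determined Ct. Without mmu-miR-196a, the only member detected with embryos and so in both media, the count with embryos was necessarily 0. The count without embryos was then 1. At the limit of 35, the shares over all miRNA assays were 37.3% with embryos and 29.1% without. The difference of mmu-miR-196a, 0.72 cycles without a reference, was 7.80 relative to the mean U6 difference of card B and 7.69 relative to the median, since U6 itself was earlier in conditioned media. Centred on the card median it was 0.47. The member counts at a Ct limit of 32, the count in conditioned media by unique names, and the counts in blank media and in blank media only under every Ct limit did not move. With 1 well per value, a Ct near 35 or an undetermined well could not be checked against a replicate.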
